A study of Mus musculus with 21 samples.

Results

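The nuclear-encoded subunits of oxidative phosphorylation were examined in mouse blood-forming progenitors with and without Dot1l. Members were all genes whose symbol places them in respiratory complexes I to IV, cytochrome c or ATP synthase (symbols starting with Ndufa, Ndufb, Ndufc, Ndufs, Ndufv, Uqcr, Cox4 to Cox8 or Atp5, together with Sdha, Sdhb, Sdhc, Sdhd, Cyc1 and Cycs, without the Ndufaf assembly factors). This gave 84 of 18194 genes on the array, each read from its probe set of highest mean over all 21 arrays. By complex there were 34 genes of complex I, 4 of complex II, 9 of complex III, 19 of complex IV, 17 of complex V and cytochrome c itself. Ndufa4 and Ndufa4l2 were counted with complex IV, where the Ndufa4 protein is now placed. The array gave no probe set to any of the 13 subunits encoded by mitochondrial DNA.

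Cells were sorted from bone marrow of mice labelled C57/BL6. LSK cells (lineage negative, Sca-1 positive, Kit positive) hold the stem cells and the earliest multipotent progenitors. Granulocyte-macrophage progenitors (GMP) are a later stage that gives neutrophils and monocytes. Control mice carried Dot1 wt/wt with Mx-Cre, and the other mice carried Dot1l fl/fl with Mx-Cre. Both genotypes received PIPC, which turns on the interferon-responsive Mx-Cre and removes both Dot1l alleles only in the floxed mice, so Cre and the injection were shared by all groups. Mx-Cre is active in many interferon-responsive tissues, so deletion may not be limited to the sorted cells. The 4 groups were LSK-Control (n = 6), LSK-Dot (n = 6), GMP-Control (n = 5) and GMP-Dot (n = 4), where Dot marks Dot1l deletion. Animal ages are absent from the labels. The K number in each title, with the group, names the array here. K1601, K1602, K1603, K1604 and K1581 stand in both control groups, and K1190, K1272, K1359 and K1421 in both deleted groups. Nothing in the labels ties an array to an animal of its own, and p-values here cover the spread among arrays, part of which may be technical.

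The respiratory chain passes electrons from NADH through complex I, or from succinate through complex II, to complex III, then by cytochrome c to complex IV and oxygen. Complexes I, III and IV pump protons across the inner mitochondrial membrane, and ATP synthase, called complex V, uses that gradient to make ATP. Stem cells of the marrow are known for low reliance on oxidative phosphorylation, and the switch to it accompanies their differentiation. DOT1L is the histone H3 methyltransferase that marks the bodies of transcribed genes.

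Some arrays stood apart from their groups. LSK-Dot K1272 had the lowest mean Spearman correlation with its own group (0.684, against 0.855 to 0.889 for the other 5) and the lowest upper quartile of all arrays (6.81). LSK-Dot K1359 had markers of LSK identity at a mean relative level of 2.04, within the 1.5 to 2.06 of the LSK-Control arrays, while the other LSK-Dot arrays lay between -2.06 and 0.88. Both probe sets of Dot1l overlapped between deleted and control arrays in each cell type, and the labels leave unsaid if these probes lie within the floxed sequence. On the dimmer probe set K1359 was the highest array of both deleted groups. It gave 7.15 in LSK-Dot, against at most 6.65 in LSK-Control, and 7.22 in GMP-Dot, against at most 6.96 in GMP-Control. On the brighter probe set LSK-Dot K1359 was instead the lowest of its group, at 5.95, with LSK-Control between 6.08 and 6.93. The extent of deletion on these arrays was not tested. In the control groups the labelled cell types showed their markers: GMP identity genes averaged 0.83 to 1.62 in GMP-Control and -1.77 to -1.04 in LSK-Control. LSK-Dot was less clear. Its array K1272 had LSK identity at -2.06, below the lowest GMP-Control array (-1.84), with GMP identity at -1.42. The 3′ minus 5′ signal of the Gapdh control probe sets, a sign of RNA quality, overlapped between all groups. It was 2.51 to 3.65 in LSK-Control, 2.06 to 3.08 in LSK-Dot, 2.24 to 3.17 in GMP-Control and 2.24 to 2.67 in GMP-Dot. LSK-Dot K1272 was the lowest of all arrays, at 2.06. For the same signal of Actb it was also the lowest, at -0.88, with the next array at -0.55 (GMP-Control K1603). The value of 3.65 was that of LSK-Control K1604, which was the lowest of its group for 46 of the 84 members. LSK-Control K1553 was the lowest for 23 and gave 2.87. The part of RNA quality in these levels was not tested. In bulk samples, fewer cells of a type and less RNA per cell cannot be told apart.

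Promoters of the members were compared with all promoters because many respiratory genes are known targets of nuclear respiratory factors. Promoter sequences from RefSeq (GRCm38.p6, 250 bases before to 50 after the start site) were found for 68 members, with 73 promoters. Letters of 4 motifs were searched on both strands: NRF1 (GCGCANGCG), ETS (CCGGAAG, bound by GABPA), YY1 (AAGATGGCG) and the E-box (CACGTG). The NRF1 letters stood in 27.4% of member promoters and 6.25% of all 32851 promoters. The ETS letters stood in 23.3% and 8.86%, the YY1 letters in 8.22% and 1.40%, and the E-box in 9.59% and 7.15%. In all, 30 of the 68 members held the NRF1 or the ETS letters, a count not made over all genes. Members called higher in control GMP (below) held the NRF1 letters in 21.4% of promoters, and the other members in 35.5%. For the ETS letters these shares were 28.6% and 16.1%, and the differences were not tested. A match describes these letters only and does not show binding. The windows shown are the 130 bases before the start site, 5′ to 3′ along the gene, with every match that lies wholly inside the window in capitals. The first 3 belong to Atp5g1, Atp5g2 and Atp5g3, which encode the same mature c subunit of the ATP synthase ring from separate genes, and they share no match wholly inside this window. The other 4 are members described below. Matches that overlap on the 2 strands are counted as 1 site.
Atp5g1, chr11:96075632-96075761, minus strand, an E-box: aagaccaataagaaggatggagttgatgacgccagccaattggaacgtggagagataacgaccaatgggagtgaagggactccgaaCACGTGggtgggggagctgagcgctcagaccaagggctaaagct
Atp5g2, chr15:102671048-102671177, minus strand, an NRF1 match: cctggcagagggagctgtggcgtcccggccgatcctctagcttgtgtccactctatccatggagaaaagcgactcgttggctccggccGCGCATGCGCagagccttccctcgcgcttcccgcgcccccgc
Atp5g3, chr2:73911327-73911456, minus strand, no match in this window: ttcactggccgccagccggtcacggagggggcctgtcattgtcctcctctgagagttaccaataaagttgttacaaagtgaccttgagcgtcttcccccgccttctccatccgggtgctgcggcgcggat
Cox6a1, chr5:115348959-115349088, minus strand, an NRF1 and an ETS match: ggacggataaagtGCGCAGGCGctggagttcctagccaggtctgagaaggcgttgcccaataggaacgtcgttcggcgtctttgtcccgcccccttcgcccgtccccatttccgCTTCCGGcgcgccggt
Uqcr11, chr10:80406822-80406951, minus strand, an ETS match (an NRF1 match that begins in the last bases runs past the start site and is not marked): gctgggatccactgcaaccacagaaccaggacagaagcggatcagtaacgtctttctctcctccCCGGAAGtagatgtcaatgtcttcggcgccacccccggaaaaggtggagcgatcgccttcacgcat
Cycs, chr6:50566570-50566699, minus strand, an NRF1 match: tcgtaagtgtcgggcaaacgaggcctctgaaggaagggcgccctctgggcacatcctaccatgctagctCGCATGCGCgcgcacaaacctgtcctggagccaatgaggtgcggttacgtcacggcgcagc
Sdha, chr13:74350241-74350370, minus strand, 3 NRF1 matches: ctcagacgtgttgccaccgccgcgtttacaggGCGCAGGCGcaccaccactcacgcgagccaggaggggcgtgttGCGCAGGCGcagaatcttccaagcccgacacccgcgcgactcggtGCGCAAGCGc

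The level of the members as a whole differed most between control LSK and control GMP. The relative level of an array is the mean over members of its log2 level minus each gene's mean over the 21 arrays. In LSK-Control it was -1.23 at the lowest, -0.54 at the median and -0.23 at the highest. In LSK-Dot it was -1.13, 0.14 and 0.35. The GMP-Control arrays gave 0.56, 0.41, 0.71, 0.75 and 0.41, and the GMP-Dot arrays gave 0.33, 0.22, 0.33 and 0.44. The mean was -0.65 ± 0.39 (SD, n = 6) in LSK-Control, -0.05 ± 0.54 (SD, n = 6) in LSK-Dot, 0.57 ± 0.16 (SD, n = 5) in GMP-Control and 0.33 ± 0.09 (SD, n = 4) in GMP-Dot. No LSK-Control array overlapped either GMP group. LSK-Dot overlapped LSK-Control and GMP-Dot, and its highest array lay below the lowest of GMP-Control. LSK-Dot K1359, at -1.13, lay among the controls, and the other 5 arrays of that group lay between -0.03 and 0.35. The means of the neighbouring groups LSK-Dot and GMP-Dot differed by less than the LSK-Dot SD. Of the 84 members, 71 had their lowest group mean in LSK-Control and 60 their highest in GMP-Control. The order LSK-Control, LSK-Dot, GMP-Dot, GMP-Control, from low to high, held for 45.

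**Figure D1:**
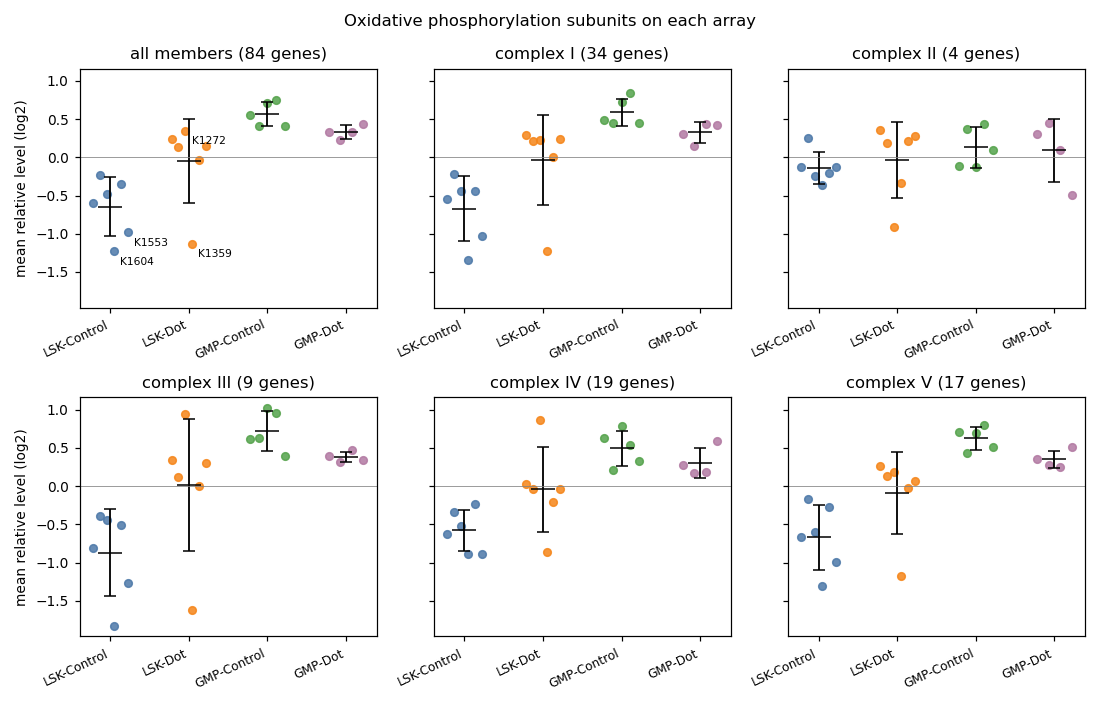
Mean relative level (log2) of the subunit genes on each array, for all 84 members and for each complex, with points for arrays and black marks for the group mean and SD. Over all members the mean is lowest in LSK-Control (arrays between -1.23 and -0.23) and highest in GMP-Control (arrays between 0.41 and 0.75). GMP-Dot reaches 0.44 and overlaps GMP-Control, and LSK-Dot K1359 lies among the LSK-Control arrays.

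The members also varied among themselves within a group. In LSK-Dot the median SD of a member was 0.84, against 0.50 in LSK-Control and 0.43 in each GMP group. All genes at or above the median gene's signal had median SDs of 0.88 in LSK-Dot and 0.57 in LSK-Control, so the wider spread of LSK-Dot was not limited to the members. Over the 84 members, LSK-Dot K1272 was the highest of its 6 arrays for 53 and the lowest for 16. LSK-Dot K1359 was the lowest for 62. The members low in K1272 included Sdha, the flavoprotein of complex II, at 5.70 against a group median of 11.46, and Cycs at 8.04 against 11.08. Ndufs1, the largest core subunit of complex I, was 4.13 there against a group median of 8.17. The same array gave its group's highest level of Uqcr11 (12.44, group median 9.56) and of Cox8a (12.04, group median 10.46). Levels of members therefore did not move together on that array, and its values stand in every LSK-Dot mean given here.

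**Figure D2:**
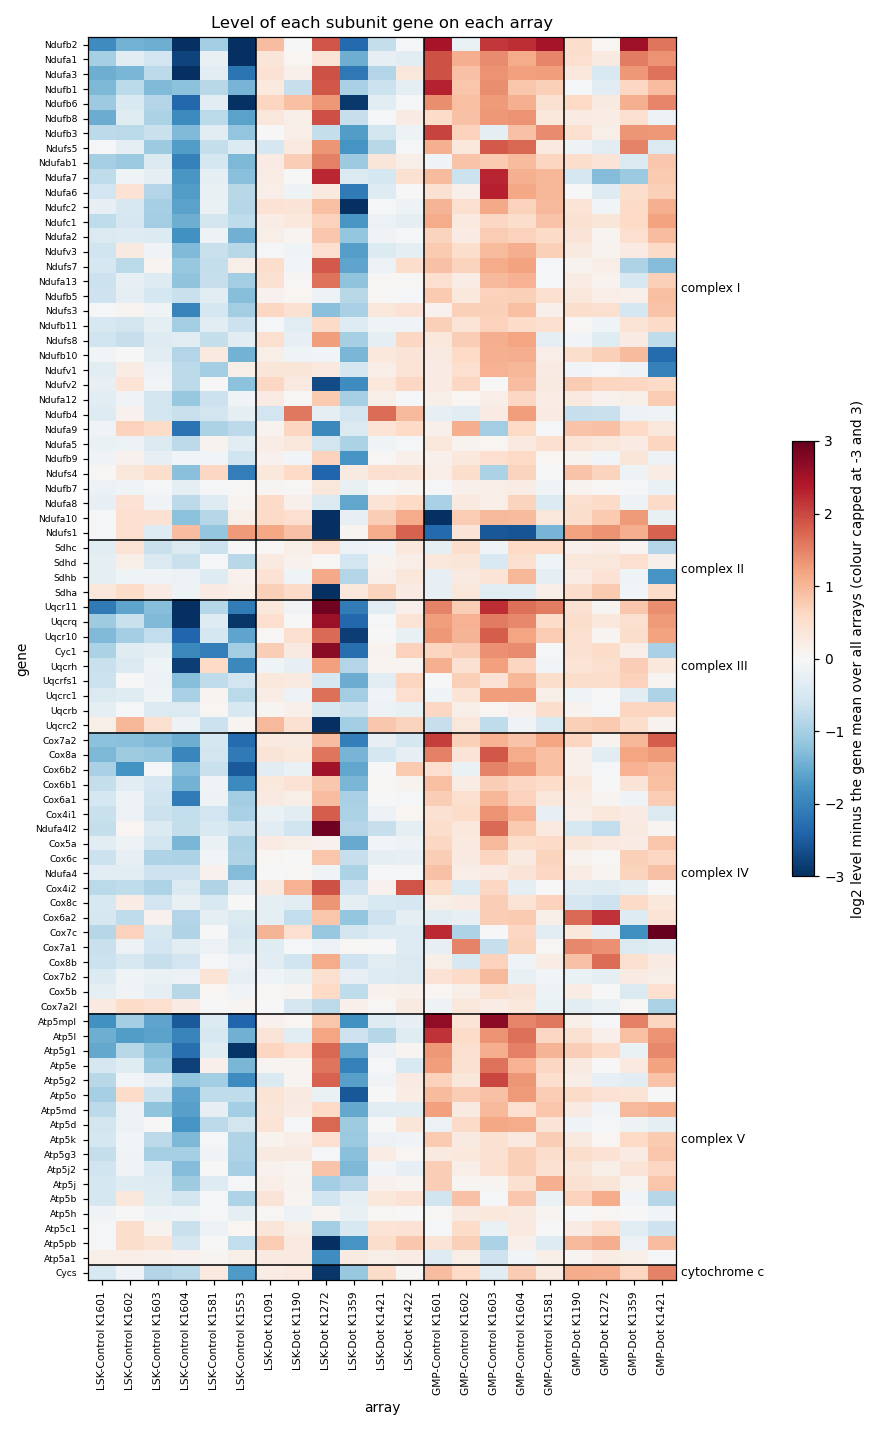
Log2 level of each of the 84 subunit genes minus its mean over all arrays, by array (columns, in 4 groups) and gene (rows, by complex and then by the difference between control GMP and control LSK). Most rows are blue in LSK-Control and red in GMP-Control; the column of LSK-Dot K1272 holds both the group's highest level for 53 members and its lowest for 16.

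Control GMP against control LSK asks how the subunit genes differ between the progenitor stages of the control mice, which carried Mx-Cre and received PIPC. Oxidative phosphorylation genes rose in GMP: 45 of 84 members passed the threshold (limma, Benjamini-Hochberg adjusted p under 0.05 over all genes), all 45 of them higher. Over all 18194 genes, 7.03% were called higher and 4.95% lower. The members' median difference was 1.12 on the log2 scale, against 0.29 over all genes, and 79 of 84 were above 0. At an unadjusted p under 0.05, 61 members were higher and 1 lower (23.1% and 10.7% of all genes). Most members are bright: 69 were among the 1820 genes of highest mean level, and 41 of these 69 were called higher, beside 242 of all 1820. The genes with the smallest p were small membrane subunits: Atp5l and Atp5mpl of ATP synthase, Cox7a2 and Cox8a of complex IV, Uqcr11 of complex III and Ndufb1 of complex I. In 45 members every GMP-Control array lay above every LSK-Control array, and 38 of them were among those called. Over all genes such separation was seen in 11.3% upward and 3.43% downward.

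ATP synthase held the members of smallest p. Atp5l encodes subunit g, a small protein of the membrane part where ATP synthases pair. It measured 7.06, 7.51 and 8.59 (lowest, median and highest log2 level) in LSK-Control, and 11.23, 9.62, 10.40, 10.71 and 9.68 in GMP-Control. Every GMP-Control array was above every LSK-Control array, and the difference was 2.71 ± 0.38 (SE), with adjusted p = 0.00026 in limma. Atp5mpl, another small membrane subunit, measured 7.08, 7.92 and 9.20 in LSK-Control, and 12.28, 10.02, 12.28, 11.09 and 11.18 in GMP-Control. Its difference was 3.38 ± 0.49, with adjusted p = 0.0003 in limma. GMP-Control K1602 was the lowest of its group for both genes and still above every LSK-Control array. Atp5md, also of the membrane part, differed by 1.60 ± 0.35.

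The c-ring turns as protons cross the membrane, and all 3 genes for its subunit were called. Atp5g1 differed by 2.63 ± 0.49, from 7.83 ± 0.94 (SD, n = 6) in LSK-Control to 10.46 ± 0.39 (SD, n = 5) in GMP-Control. Atp5g2 differed by 1.85 ± 0.46 and Atp5g3 by 1.10 ± 0.26. All 3 paralogs rose. In the full 300 bases searched, Atp5g3 also held an NRF1 match from base 14 after the start site, a motif that Atp5g2 has, and an E-box, which Atp5g1 has, at -238. By part of the enzyme, 5 of 5 further small membrane subunits and 3 of 3 c-ring genes were called higher. So were 2 of 4 genes of the peripheral stalk. Of the F1 part, which holds the catalytic head and the central stalk, 2 of 5 were called higher. The head genes Atp5a1 and Atp5b, its alpha and beta subunits, gave -0.30 and 0.52 and were not called. The F1 genes called were thus among those of the central stalk, Atp5c1, Atp5d and Atp5e. In all, 12 of 17 members of complex V were called.

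Complex I had 18 of 34 members called, at a median difference of 1.23. Its core subunits carry the flavin and the iron-sulfur clusters, and the accessory subunits surround them. Of 28 accessory genes 17 were called, and of 6 measured core genes 1 was called, Ndufs8 (1.12 ± 0.34). The medians were nearer, at 1.37 with 28 accessory genes above 0 and 1.02 with 5 core genes above 0. The difference between these shares was not tested. Ndufb2, an accessory subunit of the membrane arm, measured 4.57, 7.09 and 7.75 in LSK-Control, and 11.25, 8.56, 10.90, 10.98 and 11.27 in GMP-Control. Its difference of 4.08 ± 0.72 was the largest of the members, with adjusted p = 0.00158 in limma. Ndufb1 measured 5.39, 5.51 and 5.98 in LSK-Control, and 9.10, 7.61, 8.19, 7.61 and 7.50 in GMP-Control. Its groups were more than a log2 unit apart, and the difference was 2.38 ± 0.41. The remaining named genes of the complex that rose were Ndufb8 (2.07 ± 0.37), Ndufb11 (1.12 ± 0.20), Ndufb5 (1.21 ± 0.22) and Ndufb3 (1.80 ± 0.38), all of the membrane arm. With them rose Ndufa1 (2.97 ± 0.60), Ndufa2 (1.37 ± 0.32), Ndufa3 (2.85 ± 0.57), Ndufc1 (1.54 ± 0.33) and Ndufv3 (1.36 ± 0.31). Ndufab1, the mitochondrial acyl carrier protein that also sits in complex I, rose by 1.70 ± 0.37.

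Ndufs1 ran the other way. It encodes the largest subunit of the electron-input arm and its only probe set measured 6.0, 7.40 and 8.46 in LSK-Control. GMP-Control gave 4.83, 7.57, 4.63, 4.58 and 5.77, so 4 of 5 arrays lay below the whole LSK-Control range and K1602 lay within it. The difference was -1.88 and was not called. Only 5 of 84 members were below 0: Ndufs1, Uqcrc2, Sdha, Atp5a1 and Cox7a2l.

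Complex III had 6 of 9 members called, at a median of 1.56. Uqcr11, a very small subunit, measured 6.28, 7.70 and 8.67 in LSK-Control, and 11.04, 10.29, 11.75, 11.19 and 11.08 in GMP-Control. All GMP-Control arrays were above all LSK-Control arrays, by 3.40 ± 0.59 in the mean, with adjusted p = 0.00146 in limma. Uqcr10 differed by 2.48 ± 0.53 and Uqcrq by 2.76 ± 0.62. Of the 4 catalytic and core genes, Cyc1, the heme-bearing cytochrome c1, was called with a difference of 1.93 ± 0.59, and so was Uqcrfs1, the Rieske iron-sulfur protein, at 1.11 ± 0.32. Uqcrc2, a core subunit, gave -0.49 and was not called.

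Complex IV reduces oxygen to water, and 9 of its 19 members were called, at a median of 0.97. Of 11 subunits common to most tissues 8 were called, and of 8 isoforms known mainly from particular tissues 1 was called, Cox6b2. All 8 isoforms were above 0, at a median of 0.69, and 10 of the 11 common subunits were, at a median of 1.19. Cox7a2 measured 9.33, 10.35 and 11.13 in LSK-Control, and 13.72, 12.36, 12.69, 12.51 and 12.82 in GMP-Control. Its difference was 2.53 ± 0.44, with adjusted p = 0.00134 in limma. Cox8a differed by 2.52 ± 0.44, Cox6a1 by 1.41 ± 0.33 and Cox6c by 1.15 ± 0.25. Complex II, which also belongs to the citrate cycle, had 0 of 4 members called. Sdhc gave 0.53, Sdhd 0.47, Sdhb 0.38 and Sdha -0.31, and 2 of these had an unadjusted p under 0.05. Cycs, the mobile electron carrier, gave 1.06 and was not called.

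**Figure D3:**
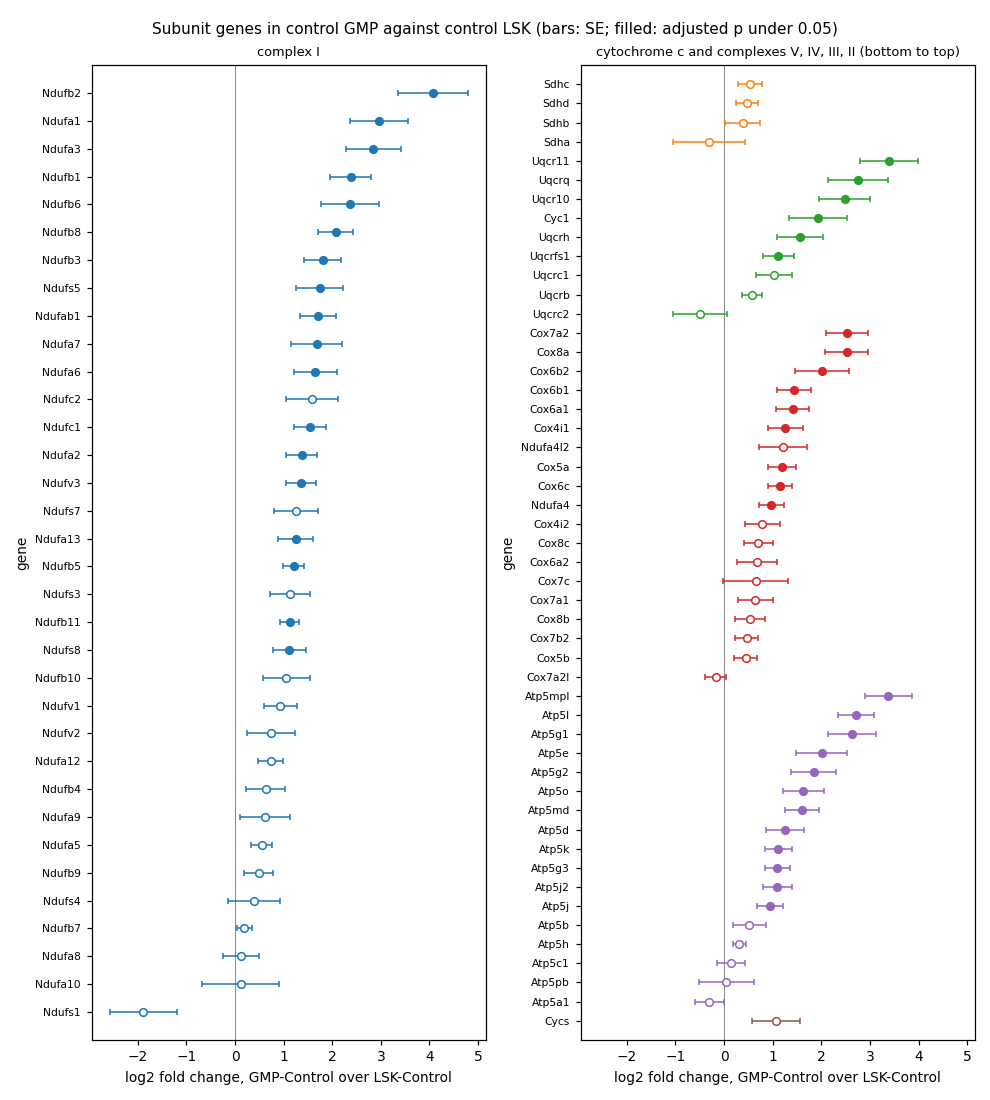
Log2 fold change of GMP-Control over LSK-Control for each of the 84 genes, with its SE; filled points passed an adjusted p of 0.05 (limma). The 45 filled points all lie above 0, none of the 4 complex II genes (orange) is filled, and Ndufs1 lies at -1.88.

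Other probe sets and settings bear on these values. Of 46 further probe sets of the called genes, 42 gave the same sign, and 33 of 33 did so among those at or above the median gene's signal of 5.54. The exceptions were dim. Without probe sets that can match several transcripts, Ndufb8 gave -0.11 and Uqcrq -1.44 from dim replacements, whose mean log2 levels were 4.34 and 4.64. The replacements for Ndufb2 and Atp5g1 gave 0.02 and 0.08, and another probe set of Ndufb2 gave 3.0. Marker genes of other cells moved in the same comparison: 4 of 10 genes of the eosinophil, basophil and mast cell list rose and 0 fell, 2 of 11 monocyte and macrophage genes rose, and 2 of 11 late neutrophil genes fell. Of 12 endothelial and stromal genes 1 rose and 2 fell, 1 of 8 T and NK cell genes rose, and 1 of 9 erythroid and 1 of 8 megakaryocyte genes fell. The mean relative level of the eosinophil, basophil and mast cell list ran from -0.99 to -0.32 in LSK-Control and from 0.35 to 1.37 in GMP-Control. Their part in the difference was not tested.

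Dot1l deletion in LSK cells was compared next. No member passed the threshold, and 0 of 18194 genes did, so the share called was 0% in both directions. The subunits were nevertheless placed mostly above the controls: 76 of 84 had a difference above 0, at a median of 0.48 on the log2 scale against 0.06 over all genes. At an unadjusted p under 0.05, 30 members were higher and 0 lower, where 3.13% of all genes were higher and 2.48% lower. In no member were the groups free of overlap (0.187% of all genes upward and 0.143% downward). By complex, 32 of 34 genes of complex I, 3 of 4 of complex II, 8 of 9 of complex III, 17 of 19 of complex IV and 15 of 17 of complex V were above 0.

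The 6 members of smallest p came from complexes I, III, IV and V. Ndufb8 measured 8.80, 9.50 and 10.35 in LSK-Control and 10.01, 10.92 and 12.65 in LSK-Dot. The groups overlapped, and the difference was 1.51 ± 0.35, with adjusted p = 0.209 in limma. Cox4i2, the oxygen-regulated isoform of the complex IV subunit, measured 5.04, 5.19 and 5.65 in LSK-Control and 5.34, 6.63 and 7.87 in LSK-Dot. Its difference was 1.46 ± 0.35, with adjusted p = 0.238 in limma, from a probe set with signals near the median gene's. Ndufab1 measured 7.52, 8.48 and 9.10 in LSK-Control and 8.45, 9.84 and 11.04 in LSK-Dot. Its difference was 1.40 ± 0.36. Atp5l measured 7.06, 7.51 and 8.59 in LSK-Control and 8.21, 8.72 and 10.25 in LSK-Dot, a difference of 1.35 ± 0.36. Atp5g1 differed by 1.75 ± 0.47 and Uqcr11 by 2.01 ± 0.57. Both also overlapped between groups, and the adjusted p of these 6 ran up to 0.375 in limma. The other probe set of Atp5g1, which was dim, gave -0.45.

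The count of called members in LSK rested on the arrays and their weights. Without LSK-Dot K1359, 4 members were called higher: Ndufb8, Cox4i2, Ndufab1 and Atp5g1. The median was then 0.71, and 0.181% of all genes were called. Without LSK-Control K1604, in turn, 16 members instead of 30 had an unadjusted p under 0.05. Without both K1272 and K1359 the count was 1, Cox4i2, with 0.198% of all genes called. With array quality weights it was 13 higher and 0 lower, with 2.45% of all genes called. Markers moved alongside. All 7 measured genes of LSK identity were below 0 in LSK-Dot, at a median of -1.59, and 11 of 11 late neutrophil genes were below 0, at a median of -2.19. Of GMP identity genes, 7 of 9 were above 0, at a median of 0.61. None of these 3 lists had a gene called in limma; at an unadjusted p under 0.05, 5 LSK identity and 8 late neutrophil genes were lower, and 4 GMP identity genes were higher and 1 lower. LSK-Dot K1359, the array lowest in subunits, was also the lowest of its group in GMP identity, at -1.72, and the highest in LSK identity. The late neutrophil level was between -0.25 and 3.59 in LSK-Control and between -1.74 and -0.25 in LSK-Dot. Their part in the subunit values was not tested.

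**Figure D4:**
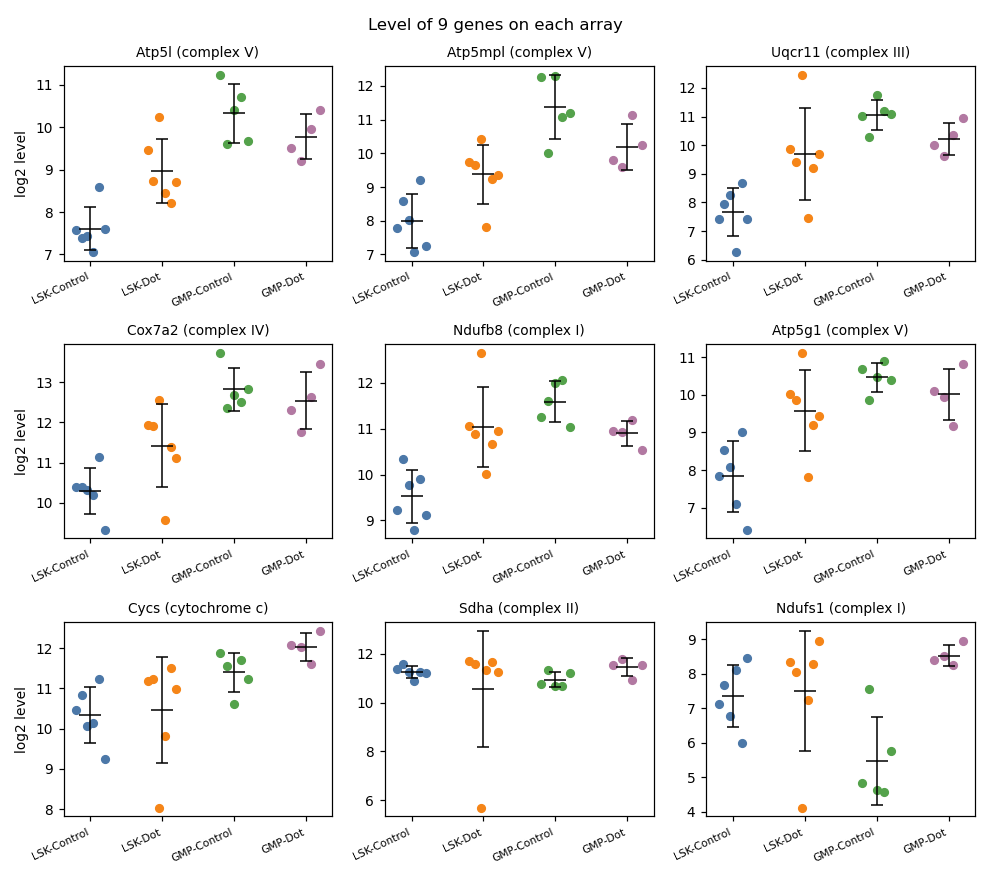
Log2 level of 9 genes on each array, with the group mean and SD in black. Atp5l, Atp5mpl, Uqcr11 and Cox7a2 are separated between LSK-Control and GMP-Control; Sdha shows the single low value of 5.70 in LSK-Dot, and Ndufs1 is low in 4 of 5 GMP-Control arrays and between 8.27 and 8.94 in GMP-Dot.

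In GMP, Dot1l deletion left no member past the threshold either. Over all genes 0.0824% were called higher and 0.0605% lower. Most subunits lay below the controls: 63 of 84 members and 11945 of 18194 genes were below 0, at medians of -0.28 and -0.20. Genes as bright as most members did not share that direction. Of the 1820 genes of highest mean level 790 were below 0, at a median of 0.11, and of the 69 members among them 53 were, at a median of -0.21. At an unadjusted p under 0.05, 2 members were higher and 6 lower, against 5.72% and 8.23% of all genes. The groups were free of overlap in 1 member upward and 3 downward (1.81% and 2.97% of all genes), namely Ndufs1 upward and Ndufv1, Ndufa4l2 and Atp5o downward. The counts downward were near the background share. Markers of other cells moved beside these values. Prg2, an eosinophil granule gene, was called lower, at -3.20. Of late neutrophil genes 9 of 11 were below 0, at a median of -0.96, 3 of them at an unadjusted p under 0.05, and their mean relative level ran from -0.15 to 0.22 in GMP-Control and from -1.17 to -0.41 in GMP-Dot. Of B cell genes 9 of 9 were below 0, 3 at an unadjusted p under 0.05, and their level ran from -0.02 to 0.74 and from -0.63 to -0.13. Neither list overlapped between the groups, and their part in the subunit values was not tested.

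Ndufs1 had the smallest p of the members in GMP and the opposite sign to most. After 4.83, 7.57, 4.63, 4.58 and 5.77 in GMP-Control it measured 8.39, 8.52, 8.27 and 8.94 in GMP-Dot. All 4 deleted arrays were above all 5 controls, and the difference was 3.05 ± 0.77, with adjusted p = 0.129 in limma. Without LSK-Dot K1272, which enters only the shared estimate of spread, the same difference had an adjusted p of 0.00929 in limma. The group mean in GMP-Dot (8.53 ± 0.30, SD, n = 4) was above the LSK-Control mean (7.36 ± 0.90, SD, n = 6), so the low values were those of the control GMP. The upper quartile of log2 level was 6.95, 7.78, 6.96, 7.52 and 7.31 in the GMP-Control arrays in the order given for Ndufs1, so K1602 was highest in both. LSK-Dot K1272 had the lowest upper quartile of all, 6.81, and Ndufs1 at 4.13. The part of the array's range in these levels was not tested.

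The 5 other members of smallest p in GMP were lower, and 4 of them belong to complex I. Ndufv1, the flavoprotein that takes electrons from NADH, measured 11.11, 11.37, 11.91, 11.85 and 11.11 in GMP-Control and 10.79, 10.84, 10.76 and 8.84 in GMP-Dot. The groups did not overlap, GMP-Dot K1421 was far below the rest, and the difference was -1.16 ± 0.37, with adjusted p = 0.211 in limma. Without K1421 it was -0.68. Ndufa7 measured 10.59, 8.99, 11.91, 10.69 and 10.63 in GMP-Control and 9.14, 8.32, 8.51 and 10.41 in GMP-Dot. Its 4 other probe sets gave differences between -1.88 and -1.46, beside -1.47 ± 0.58 for the one used. Ndufs7 and Ndufs8 carry iron-sulfur clusters of the path to ubiquinone. Ndufs7 gave -1.25 ± 0.50, Ndufs8 -0.85 ± 0.37 and Uqcrc1, a core subunit of complex III, -0.93 ± 0.42. With array quality weights 5 members were called higher and 6 lower, with 39.3% of all genes called, and without the 5 arrays of lowest upper quartile 3 and 3, with 18.6%. Both settings rest GMP-Dot on K1190 and K1272, its most alike pair: the second leaves no other GMP-Dot array, and the weights were 8.89 and 2.32 for these arrays and 0.253 and 0.297 for K1359 and K1421.

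The difference between the deletion effects (GMP minus LSK) was tested in the same model. No member was called, where 0.0165% of all genes were called higher and 0.0165% lower. The effect was lower in GMP than in LSK for 69 of 84 members, and for 11610 of 18194 genes. The median was -0.77 for members and -0.26 for all genes. Among the 1820 genes of highest mean level 714 were below 0, at a median of 0.31, and among the 69 members of that set 58 were, at a median of -0.78. At an unadjusted p under 0.05, 31 members were lower and 1 was higher, Ndufs1, against 8.29% and 5.3% of all genes. The members of smallest p were Ndufb8 (-2.20 ± 0.54), Atp5mpl (-2.56 ± 0.71), Atp5l (-1.91 ± 0.55), Ndufv1 (-1.67 ± 0.49), Cox4i2 (-1.80 ± 0.53) and Ndufa7 (-2.55 ± 0.77). Their adjusted p lay between 0.167 and 0.219 in limma. Atp5mpl shows the pattern: 7.99 ± 0.80 (SD, n = 6) in LSK-Control, 9.37 ± 0.88 (SD, n = 6) in LSK-Dot, 11.37 ± 0.95 (SD, n = 5) in GMP-Control and 10.19 ± 0.69 (SD, n = 4) in GMP-Dot. Array quality weights gave 31 members lower and 3 higher past the threshold, with 23.3% of all genes called. The single dim alternative probe set of Ndufb8 gave 0.26.

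The GMP to LSK comparison was repeated within the deleted mice. No member was called (0.0495% of all genes higher, 0.0934% lower), and 67 of 84 were above 0, at a median of 0.47 against 0.01 over all genes. At an unadjusted p under 0.05, 13 members were higher and 1 lower (3.81% and 3.47% of all genes). In 4 members (Cycs, Ndufa4, Ndufb5 and Cox5a) the groups did not overlap, all upward (1.1% of all genes upward and 0.929% downward). Without LSK-Dot K1359 the median fell to 0.21 and 56 members were above 0. Cycs measured 8.04, 11.08 and 11.51 in LSK-Dot and 12.07, 12.02, 11.59 and 12.42 in GMP-Dot, so that no arrays overlapped. Its difference was 1.57 ± 0.53, with adjusted p = 0.326 in limma. Ndufb3 gave 1.30 ± 0.40 and Uqcrb, a small subunit of complex III, 0.56 ± 0.21. Cox4i2 was lower in GMP-Dot, by -1.01 ± 0.39. Cox6a2 and Cox8b, the heart and muscle isoforms of complex IV subunits, gave 1.35 ± 0.43 and 1.03 ± 0.33. For Cox6a2 the GMP-Dot arrays read 9.13, 9.59, 7.04 and 7.83. GMP-Dot K1190 and K1272 alone stood above the LSK-Dot range of 6.26 to 8.27. These 2 arrays were the most alike pair of any group, with a Spearman correlation of 0.982. Both isoforms were called with array quality weights and without the 5 arrays of lowest upper quartile, settings that rest GMP-Dot on this pair, and Cox8b also without LSK-Dot K1272.

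Isoforms of complex IV subunits were read across the groups, each gene against itself. Cox4i1, the common form of the subunit, had means of 10.63 ± 0.26 (SD, n = 6) in LSK-Control, 11.29 ± 0.94 (SD, n = 6) in LSK-Dot, 11.89 ± 0.61 (SD, n = 5) in GMP-Control and 11.34 ± 0.35 (SD, n = 4) in GMP-Dot. Cox4i2 was highest in LSK-Dot instead, at 6.74 ± 1.02 (SD, n = 6), with 5.28 ± 0.26 in LSK-Control and 6.07 ± 0.47 (SD, n = 5) in GMP-Control. Cox6b1, the common form, and Cox6b2, the testis form, had higher means in GMP-Control than in LSK-Control, going from 11.79 ± 0.70 to 13.23 ± 0.25 and from 7.06 ± 0.87 to 9.07 ± 0.67. Cox7a2l, a paralog of Cox7a2, was not called: 12.47 ± 0.21 in LSK-Control and 12.30 ± 0.26 in GMP-Control. Cox7a1, the muscle form, reached 5.20 at most on any array. Cox8c ran from 5.79 ± 0.30 in LSK-Control to 6.50 ± 0.26 in GMP-Control. Ndufa4 went from 11.87 ± 0.47 in LSK-Control to 12.84 ± 0.28 in GMP-Control, while Ndufa4l2, its hypoxia-induced relative, spanned 5.15 to 8.94 in LSK-Dot, the top value being K1272. The 5 members with probe sets below the median gene were Cox7a1, Cox7b2, Cox7c, Cox8b and Ndufb4.

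Neighbouring pathways of the mitochondrion were counted with the same fit. Their counts stand beside 7.03% of all genes called higher and 4.95% called lower between the control groups, and beside the shares at an unadjusted p given above for each deletion, so a few genes of a list can be near the background. The 76 mitochondrial ribosomal protein genes, which make the machinery that translates the subunits of mitochondrial DNA, moved in the same comparison: 19 rose and 0 fell from control LSK to control GMP, at a median of 0.98, led by Mrpl36 (2.72 ± 0.35), Mrpl54 (2.43 ± 0.42) and Mrps18c (1.99 ± 0.38). Their medians under deletion were 0.49 in LSK and -0.35 in GMP, with 0 called in each in limma (16 higher at an unadjusted p under 0.05 in LSK, 1 higher and 6 lower in GMP). Of 49 measured assembly factors 9 rose and 1 fell, among them Foxred1 (1.10 ± 0.22) for complex I and Uqcc3 (1.81 ± 0.40) for complex III, while Ttc19, also for complex III, fell by 2.13 on the log2 scale. Of 27 regulators of mitochondrial biogenesis and DNA expression 1 rose, Slirp, an RNA-binding partner of mitochondrial transcripts (2.78 ± 0.50), and 3 fell, Twnk, Mterf1a and Mterf3. None of 17 citrate cycle genes was called between the control groups in limma (3 at an unadjusted p under 0.05), at a median of -0.10. Of 17 glycolysis genes 3 rose, Tpi1 (0.98 ± 0.22), Pgam1 (0.85 ± 0.19) and Hk3 (1.05 ± 0.32), and 1 fell, Hk1, by 2.0 on the log2 scale. Under deletion, 0 genes of the assembly factor, biogenesis, citrate cycle and glycolysis lists were called in LSK or in GMP in limma. At an unadjusted p under 0.05, 10 assembly factors were higher in LSK, and 3 were higher and 2 lower in GMP. The same counts for biogenesis genes were 2 higher and 1 lower in LSK and 4 higher in GMP. For the citrate cycle they were 1 higher in LSK and 3 higher in GMP, and for glycolysis 1 higher and 1 lower in LSK and 1 higher in GMP.

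**Figure D5:**
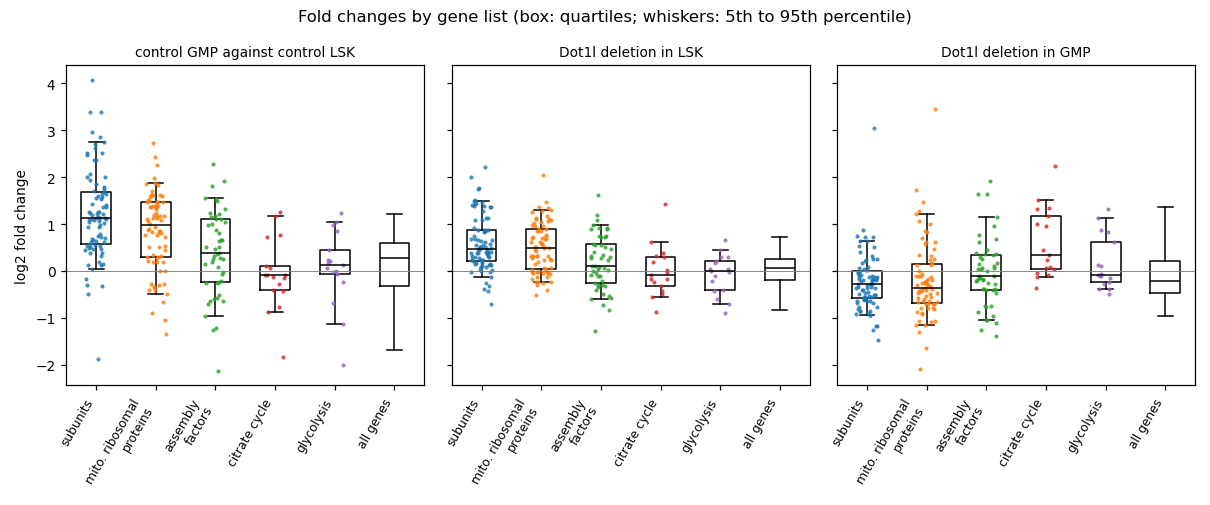
Log2 fold changes of the subunits, 4 other mitochondrial or glycolytic gene lists and all genes in 3 comparisons; boxes give the quartiles and whiskers the 5th to 95th percentile, with a point for each list gene. Subunits and mitochondrial ribosomal proteins have medians of 1.12 and 0.98 between the control groups, 0.48 and 0.49 for deletion in LSK, and -0.28 and -0.35 for deletion in GMP.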

How the data were processed

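Total RNA (100 ng) from sorted cells was hybridised as biotinylated cRNA to Affymetrix mouse arrays, as the labels' protocols state. The files the authors deposited hold linear intensities, made with RMA per the submitters' processing notes; neither its version nor a genome build is given. RMA brings the probe signals of arrays to 1 distribution before they are summarised. The upper quartiles given here are taken over the 18194 genes and differ between arrays.

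Intensities were taken to log2. Probe sets naming exactly 1 gene in the platform annotation were kept (34958 of 45101; 932 named several and 9211 none), each gene by its brightest. A model of 4 group means over 21 arrays was fitted with limma 3.58.1 in R 4.3.3. Benjamini-Hochberg adjustment ran over 18194 genes with a threshold of 0.05, and the fit was tested on simulated data. There a log2 difference of 1 in 100 genes was called for 22 (deletion in LSK), 21 (deletion in GMP) and 3 (difference of effects). For a difference of 2 these counts were 70, 65 and 23. A gene not called is therefore not shown to be unchanged. The number of arrays limits the precision. Signals of different genes are compared only to set brightness classes, since probe sets differ in response. Members and lists were chosen with earlier results of these data known. Named genes were the called members, at most 24 by smallest p, or the 6 of smallest p where fewer than 6 were called; paralog sets, the Sdh genes, Cyc1 and Cycs for their levels; and up to 3 called genes of each other list. Genes named beyond these were chosen after their values were seen. Deviations from the group mean correlated between -0.397 and 0.272 for LSK and GMP arrays that share a K number, so these were not used as pairs. Such correlations cannot show whether the arrays come from the same animal.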

Additional observations from a re-analysis of the deposited data

Results flagged for a closer look

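Within groups of 4 to 6 arrays, the gap of the highest or lowest array to its neighbour was set against the group's range for the named genes and the complex means. Of 164 such groups 15 had an array beyond Dixon's 95% critical value, and chance gives about 1 in 20. LSK-Dot K1359 was the low array for the mean relative level of all members (-1.13), complex I (-1.23), complex III (-1.62) and complex V (-1.17), and for the log2 levels of Atp5g3 (10.36), Ndufb5 (10.83) and Ndufv1 (10.35). LSK-Dot K1272 was the high array for Cox8b (5.83), Ndufa7 (11.90) and Ndufb11 (13.24), and the low array for Ndufs1 (4.13). GMP-Dot K1421 was low in Ndufv1 (8.84), GMP-Control K1601 in Ndufab1 (9.44) and GMP-Control K1602 in Ndufb2 (8.56). LSK-Control K1581 was high in Atp5l (8.59).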

How the results depend on the processing

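Members called higher in control GMP than control LSK numbered 32 to 60 over the settings run, against 45, with at most 1 lower. The share of all genes called higher moved with the setting. It was 3.41% at 32 members (without GMP-Control K1603) and 7.03% at 45. At 60 members (without LSK-Dot K1272 and K1359) it was 20.7%. With array quality weights, 13 members were called for deletion in LSK, 11 in GMP, 34 for the difference of effects and 6 between the deleted groups. In that order, 2.45%, 39.3%, 23.3% and 7.49% of all genes were called. The 11 and the 6 members were thus not above the share over all genes. Leaving out 1 array at a time gave 0 to 4 called for deletion in LSK, 0 to 1 for deletion in GMP and 0 to 1 between the deleted groups (4 without LSK-Dot K1359, 1 without LSK-Dot K1272). Without K1359, 0.181% of all genes were called for deletion in LSK. Without K1272, 2.14% were called for deletion in GMP and 0.605% between the deleted groups. Without both of these arrays the counts were 1 in LSK, 1 in GMP and 2 for the difference (0.198%, 1.86% and 0.44% of all genes). Without the 5 arrays of lowest upper quartile they were 6 in GMP, 3 for the difference and 3 between the deleted groups (18.6%, 4.31% and 1.45% of all genes). That last setting leaves GMP-Dot with K1190 and K1272. These last settings were chosen after seeing the data, and the cause of the changes was not tested. Without probe sets marked as matching several transcripts, Atp5g1 in LSK gave -0.45, Ndufb8 gave 0.26 for the difference and -0.11 between the control groups, and Uqcrq gave -1.44, from other, dim probe sets. With the replicate block, 36 members were called between the control groups (3.86% of all genes called higher) and 0 in the other 4 comparisons. The labels do not say if arrays that share a K number come from the same animal. Centring arrays moved the all-gene median of the difference of effects from -0.26 to -0.16.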
